A study of Bos taurus with 8 samples.

Results

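Transcripts of the DNA replication machinery and of the passage of cells into S phase were compared in bovine mammary epithelial cells with and without short hairpin RNAs (shRNAs) against EEF1D. The set held 59 genes in 10 roles, named by symbol from origin licensing to chromatin assembly behind the fork. Of these, 57 had a probe filed under their symbol, 135 probes in all, and all 57 passed the filter on dim signal, out of 12610 genes tested. MCM2 and RFC1 had no probe under their symbol and are described apart. Each gene was read from its brightest probe.

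Messenger RNA was measured on 8 one-colour bovine arrays: 3 of cells given shRNA EEF1D-1357, 3 of cells given shRNA EEF1D-1893, all 6 labelled as EEF1D knockdown, and 2 controls that by their labels carried no shRNA. All were primary cells grown from the mammary tissue of a Holstein cow in milk and taken at passage 5. EEF1D encodes a subunit of translation elongation factor 1, and each shRNA lowers its target by RNA interference. No label gives a non-targeting shRNA, so carrying an shRNA and lowering EEF1D cannot be told apart here. Whether replicates came from separate cultures is not in the labels, so the spread behind each p-value may be technical. Each probe gives 1 value for the whole culture, so fewer cells in S phase and less transcript per cell cannot be told apart.

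A cell licenses its replication origins in G1, when the origin recognition complex (ORC), CDC6 and CDT1 load the MCM2 to MCM7 ring onto DNA. At the start of S phase, cyclin-CDK2 and DBF4-CDC7 kinases turn that ring into the active helicase with CDC45 and the GINS complex, and polymerases, the sliding clamp and its loader copy the strands. E2F transcription factors, released from the retinoblastoma protein, drive transcription of many of these genes, so their mRNA levels are known to go up and down with the share of cells entering S phase. In the lactating mammary gland, epithelial cells divide little, whereas in culture they cycle.

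Across the arrays, most of these genes varied together, and arrays of the same group differed. EEF1D-1357 replicate 1 held the lowest value of the 8 arrays for 36 of the 57 genes (63.2%), against 11.6% of all 12610 genes. Control replicate 1 held the highest value for 26 of them (45.6%), but it also did so for 39.1% of all genes. EEF1D-1893 replicate 3 held the highest for 17 (29.8%), against 11.1% of all genes. On EEF1D-1357 replicates 1 and 2, 54 and 52 of the 57 genes lay below their own mean over the 8 arrays. On EEF1D-1357 replicate 3 only 10 did, and on EEF1D-1893 replicates 1, 2 and 3 the numbers were 18, 41 and 4, against 13 and 22 in the controls. For these genes the third EEF1D-1357 array was thus closer to the controls than to the other two arrays of its group.

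**Figure D1:**
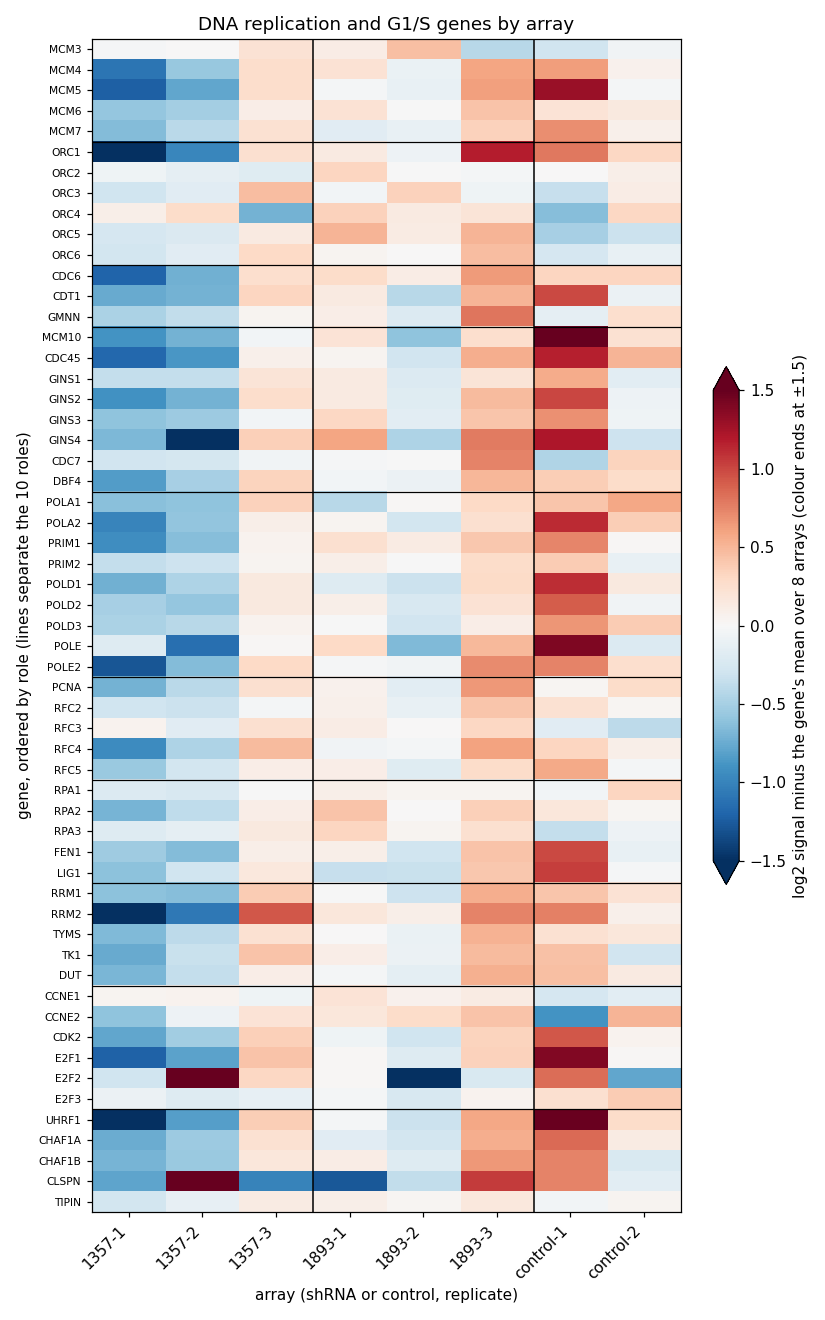
Each row is a gene and each column an array, with the EEF1D-1357 arrays at the left, the EEF1D-1893 arrays in the middle and the controls at the right. Colour gives the scaled log2 signal minus the gene's mean over the 8 arrays, blue for below and red for above; 54 of 57 genes are below their mean in the leftmost column.

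The level is given throughout as log2 of the processed intensity minus the array's 75th percentile, so 0 is that percentile and negative values are dimmer. Signals of different probes are not comparable with each other. The EEF1D probe used had 5.97, 5.85 and 5.09 on this scale with EEF1D-1357, 5.99, 5.74 and 5.76 with EEF1D-1893, against 7.11 and 6.14 in the controls. All 6 shRNA arrays were below both controls, but control replicate 2 lay within 0.15 of EEF1D-1893 replicate 1. The log2 fold change was -0.89 ± 0.32 (SE) for both shRNAs, 53.9% of control, with an adjusted p of 0.243 (limma, Benjamini-Hochberg over all genes), and the 4 EEF1D probes gave -0.89, -1.16, -0.32 and -0.88. The array with the lowest EEF1D, EEF1D-1357 replicate 3, was not among those with low replication genes.

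Quality differed between arrays. Between 60.6% and 71.5% of probes were well above background, the 75th percentile lay between 1276 and 2100 intensity units, the lowest in control replicate 1, and 0 spots were saturated. The SD of the log2 difference between arrays of a group, over all genes, was 0.50 to 0.73 with EEF1D-1357, 0.57 to 0.65 with EEF1D-1893, and 0.83 between the controls. The file headers put the 3 EEF1D-1357 arrays and control replicate 2 on slide 1, and the 3 EEF1D-1893 arrays and control replicate 1 on slide 2.

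Epithelial keratins were bright, and the 8 measured of 11 luminal markers, KRT8, KRT18 and GATA3 among them, were well above background on all 8 arrays. ELF5, ESR1 and PGR were not measured, being well above background on at most 1 array. All 8 basal and myoepithelial markers were measured, 7 of them on every array. Of the fibroblast markers 8 of 9 were measured but only 3 on every array. PDGFRB, PECAM1, KDR, TEK and CD3E were well above background on no array. The median deviation of the fibroblast list ran between -0.77 and -0.14 on EEF1D-1357 arrays, between -0.24 and 0.54 on EEF1D-1893 arrays, and was 0.31 on both controls. The basal list ran between -0.66 and -0.01 with EEF1D-1357, between -0.47 and 0.63 with EEF1D-1893, and was 0.64 and 0.77 in the controls. These lists were low on EEF1D-1357 replicate 3 too, unlike the replication genes. Their part in the values of the replication genes was not tested.

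**Figure D2:**
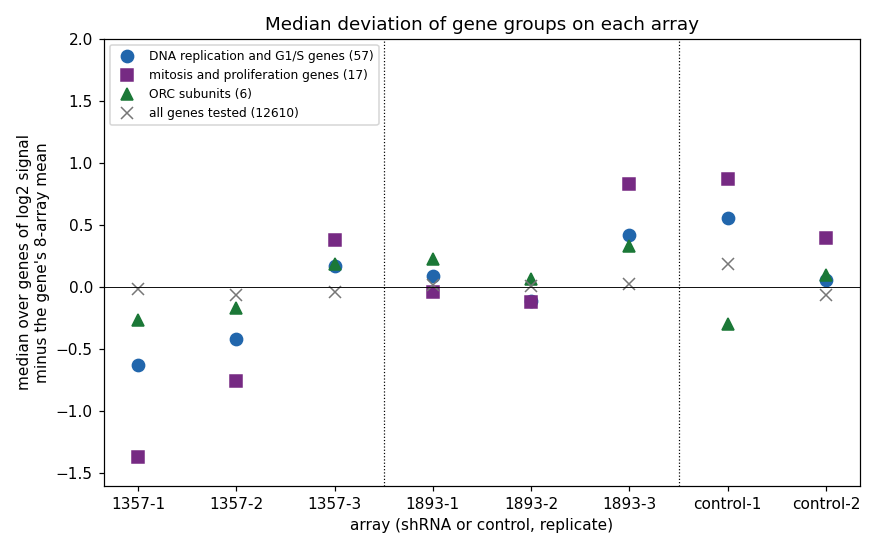
The vertical axis is the median, over the genes of a group, of the log2 signal minus each gene's mean over 8 arrays; the horizontal axis lists the arrays. The 57 replication genes lie between -0.63 and 0.17 with EEF1D-1357, between -0.11 and 0.42 with EEF1D-1893, and at 0.56 and 0.06 in the controls, while the 12610 genes stay between -0.07 and 0.19.

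With both shRNAs against control, 47 of the 57 genes (82.5%) had a log2 fold change below 0, against 57.2% of all genes, and their median was -0.41, against -0.07 over all genes. No gene of the set passed an adjusted p of 0.05, and the same held for 0 of 12610 genes (0%). At an unadjusted p under 0.05, 6 were lower and 3 higher in the shRNA cells, which is 10.5% and 5.26% of the set, against 9.60% and 7.34% of all genes. The 6 shRNA arrays all lay below both controls for 4 genes (POLA1, POLA2, POLD3 and E2F3) and all above for 3 (ORC5, RFC3 and CCNE1), which compares with 9.19% and 7.69% of all genes. With all 8 arrays, the count past a threshold was thus close to the background, while the shared direction was more one-sided than in all genes. The count rested on single arrays: 22 were lower without EEF1D-1357 replicate 3, against 9.93% of all genes, 14 without control replicate 2, against 27.4%, and 2 without control replicate 1, against 6.19%.

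With EEF1D-1357 against control the median was -0.61 over the 57 genes and -0.09 over all genes, and 47 were below 0. At an unadjusted p under 0.05, 8 were lower and 0 higher, against 9.94% and 6.23% of all genes, and 0 passed the adjusted p. The groups were apart for 13 lower and 4 higher genes, against backgrounds of 18.4% and 12.2%. With EEF1D-1893 the median was -0.14, against -0.03 over all genes, and 39 of 57 were below 0. At an unadjusted p under 0.05, 2 were lower and 4 higher (backgrounds 7.31% and 6.76%), with 0 at the adjusted p, and the groups were apart for 4 lower and 5 higher genes (backgrounds 14.6% and 13.6%). Both contrasts share the 2 controls.

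The slide matters for reading those medians side by side. Compared with the control on its own slide, EEF1D-1357 gave a median of -0.40 over the 57 genes, with 48 below 0, while all genes had a median of 0.03. On the other slide EEF1D-1893 also gave -0.40, with 39 below 0, while all genes had a median of -0.19. Each of these rests on 1 control array and has no test. With slide as a block in limma, 0 of the 57 passed an adjusted p of 0.05 in any contrast with control, where 5.51% of all genes passed for both shRNAs, 0.222% for EEF1D-1357 and 14.6% for EEF1D-1893. Without control replicate 2, the median for both shRNAs was -0.62, against -0.21 over all genes, and without control replicate 1 it was -0.18, against 0.06.

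**Figure D3:**
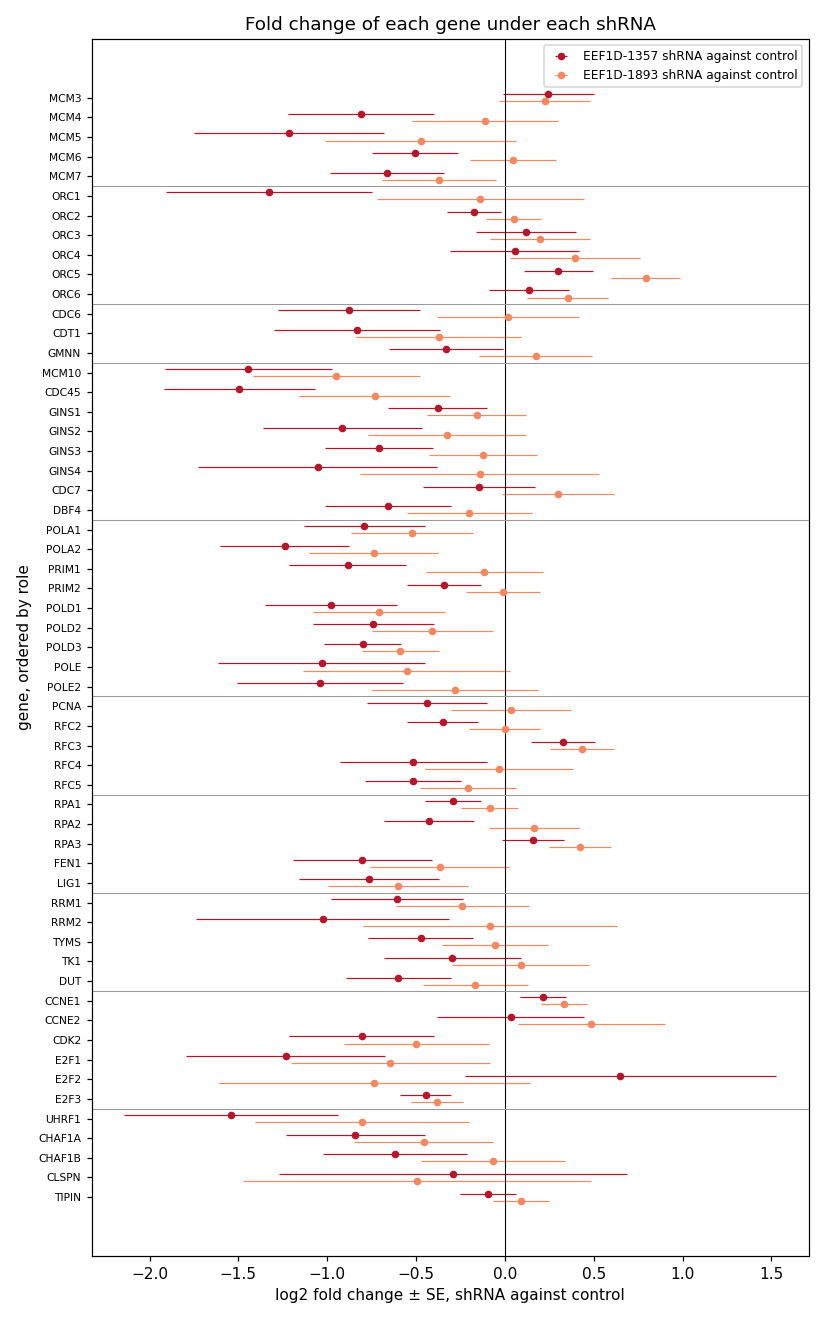
Points give the log2 fold change of each gene, with bars of 1 SE, for EEF1D-1357 (dark red) and EEF1D-1893 (orange) against the same 2 controls. Genes run down the page by role, and 54 of the 57 dark points lie left of the orange point of the same gene.

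Among the DNA polymerases and primase, all 9 measured subunits, the dim POLE included, were below control. The median log2 fold change was -0.66, with a range from -0.99 to -0.18. At an unadjusted p under 0.05, 3 were lower (33.3%), against 9.60% of all genes. The count in so small a role was not tested. POLD3, an accessory subunit of polymerase delta, had -1.66, -1.61 and -1.14 with EEF1D-1357 and -1.20, -1.48 and -1.09 with EEF1D-1893, against -0.53 and -0.81 in the controls. On this probe every shRNA array was below both controls, and the means were -1.47 ± 0.29 with EEF1D-1357, -1.26 ± 0.20 with EEF1D-1893 and -0.67 ± 0.20 in control (SD, n = 3, 3 and 2). Its log2 fold change of -0.69 ± 0.19 had the smallest p of the set (adjusted p = 0.19, limma), and its other 2 probes gave -0.68 and -0.38. Those 2 probes overlapped, with EEF1D-1893 replicate 3 at -1.149 and -3.824, above control replicate 2 at -1.345 and -4.538. For EEF1D-1893 against control they gave -0.46 and -0.02.

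POLA2, the regulatory B subunit of polymerase alpha, had -3.56, -3.17 and -2.49 with EEF1D-1357 and -2.53, -2.85 and -2.33 with EEF1D-1893, against -1.45 and -2.21 in the controls. Its groups did not overlap, with means of -3.07 ± 0.54 with EEF1D-1357, -2.57 ± 0.26 with EEF1D-1893 and -1.83 ± 0.53 in control. The log2 fold change was -0.99 ± 0.32, with an adjusted p of 0.222 in limma. The probes of both genes are shown because they carried the clearest separation among the polymerases; both are plus-strand placements on the Btau_3.1 build of the array annotation, POLA2 at chr29:45315956-45316842 and POLD3 at chr15:53537266-53537325. All probe positions below are on that build too, and whether they lie in exons or untranslated regions was not analysed here. The POLA2 probe has 60 bases over 887 genomic positions, so it is placed in more than 1 block.
POLA2 probe: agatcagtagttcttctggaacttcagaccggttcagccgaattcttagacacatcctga
POLD3 probe: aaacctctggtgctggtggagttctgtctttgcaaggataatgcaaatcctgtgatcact

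Among the other polymerase genes, the catalytic subunit POLD1 had a log2 fold change of -0.84 ± 0.33 and POLD2 of -0.57 ± 0.31. POLA1, the catalytic subunit of polymerase alpha, had -0.66 ± 0.31, and on the probe used both control arrays were above all 6 shRNA arrays. Its other probe, well above background on 3 arrays, gave -0.68 and overlapped, with EEF1D-1893 replicate 3 at -5.095 and control replicate 2 at -5.388. POLE2 gave -0.66 ± 0.42 and PRIM2, the large primase subunit, -0.18 ± 0.19. POLE, the catalytic subunit of polymerase epsilon, was well above background on 2 of 8 arrays, so no fold is given for it. Without control replicate 2, POLA2, POLD1 and POLD2 passed an adjusted p of 0.05 for EEF1D-1357, as did MCM10. That setting called 23.0% of all genes, against 4 of these 57.

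PRIM1, the catalytic primase subunit (probe at chr5:61284111-61284594), had -5.62, -5.32 and -4.63 with EEF1D-1357 and -4.44, -4.56 and -4.28 with EEF1D-1893, against -3.94 and -4.67 in the controls. Its probe was well above background on no EEF1D-1357 array, on all 3 EEF1D-1893 arrays and on both controls. Each dim array was set to its lowest well-measured signal, or to the probe's own if that was higher. The mean of this probe was then at least 1.79-fold lower with EEF1D-1357 than in control. It was at least 1.65-fold lower than with EEF1D-1893. These bounds hold for means only, since EEF1D-1357 replicate 3 lay above control replicate 2. The fitted means were -5.19 ± 0.51 with EEF1D-1357, -4.42 ± 0.14 with EEF1D-1893 and -4.31 ± 0.51 in control. The adjusted p (limma) was 0.27 for both shRNAs against control and 0.747 between the shRNAs. The 3 PRIM1 probes lay on both sides of 0 for both shRNAs against control. For EEF1D-1357 against control, the probes not used, each well above background on 3 arrays, gave -0.35 and -0.25.

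Of the helicase activation genes, 7 of 8 were below control, with a median of -0.51. At an unadjusted p under 0.05, 2 were lower (25.0%), against 9.60% of all genes, a count again not tested. CDC45, which joins MCM and GINS in the active helicase (probe at chr17:76099009-76099068), had -0.56, -0.26 and 0.69 with EEF1D-1357 and 0.66, 0.33 and 1.16 with EEF1D-1893, against 1.78 and 1.12 in the controls. Means were -0.05 ± 0.65 with EEF1D-1357, 0.72 ± 0.42 with EEF1D-1893 and 1.45 ± 0.47 in control, and EEF1D-1893 replicate 3 lay just above the lower control. The log2 fold change was -1.11 ± 0.38, 46.2% of control, with an adjusted p of 0.231 (limma), and a further CDC45 probe at another place in the gene gave -1.20. MCM10, which binds the activated helicase (probe at chr13:27448003-27448061), had -1.13, -0.95 and -0.28 with EEF1D-1357 and -0.04, -0.85 and 0.01 with EEF1D-1893, against 1.33 and -0.02 in the controls. It averaged -0.79 ± 0.45 with EEF1D-1357, -0.29 ± 0.48 with EEF1D-1893 and 0.66 ± 0.95 in control, and the 2 controls lay further apart than any pair of shRNA arrays within a group. Its log2 fold change of -1.20 ± 0.42 was the largest decrease of the set for both shRNAs by the probes used, while its other probe gave -0.70. The adjusted p of the probe used was 0.238. Without control replicate 2 its log2 fold change was -1.87 with an adjusted p of 0.0344, in a setting that called 23.1% of all genes.

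The 4 GINS subunits, which hold CDC45 to the MCM ring, were all below control, at -0.27 ± 0.25 for GINS1, -0.62 ± 0.40 for GINS2 and -0.41 ± 0.27 for GINS3. GINS4 was dim, well above background on 2 arrays, on no EEF1D-1357 array and on 1 of 2 controls, so no fold is given for it. The kinase CDC7 was the exception of this role, at 0.08 ± 0.28, while its activator DBF4 was at -0.43 ± 0.32.

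In the MCM helicase itself, 4 of the 5 measured subunits were below control and none was lower or higher at an unadjusted p under 0.05. MCM5 (probe at chr5:79117514-79117573) had 2.46, 2.90 and 3.95 with EEF1D-1357 and 3.66, 3.58 and 4.30 with EEF1D-1893, against 4.98 and 3.66 in the controls. Control replicate 1 stood 1.32 above control replicate 2, and control replicate 2 was within the range of the shRNA arrays. The means were 3.1 ± 0.77 with EEF1D-1357, 3.84 ± 0.39 with EEF1D-1893 and 4.32 ± 0.93 in control and the log2 fold change -0.85 ± 0.48, with an adjusted p of 0.398. MCM7 (probe at chr25:38456776-38456835) had 1.85, 2.10 and 2.73 with EEF1D-1357 and 2.33, 2.39 and 2.85 with EEF1D-1893, against 3.20 and 2.58 in the controls, with means of 2.23 ± 0.46 with EEF1D-1357, 2.52 ± 0.28 with EEF1D-1893 and 2.89 ± 0.44 in control, a log2 fold change of -0.52 ± 0.29 and an adjusted p of 0.391. MCM4 gave -0.46 ± 0.37 and MCM6 -0.23 ± 0.22; MCM6 separated EEF1D-1357 from the controls, with 3 arrays at -0.55, -0.48 and 0.14 against 0.24 and 0.18.

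MCM3 was 1 of 8 genes with probes on both sides of 0. Its brightest probe, the only one used by the rule, gave 0.23 ± 0.23, while its 3 other probes gave -0.97, -1.05 and -0.90. The probes at -1.05 and -0.90 were dim, each well above background on 6 of 8 arrays, with SEs of 0.82 and 0.49. The array annotation places the brightest probe on chr9:90413780-90413839 and all 3 others on chromosome 23, and it was the only gene of the set whose brightest probe lay on another chromosome than all of its other probes. 3 of the 4 probes are shown with their Btau_3.1 placements, all on the minus strand; the first chromosome 23 probe lies at chr23:25209596-25210520, over 925 positions, and the next at chr23:25212322-25212381. Capitals mark a run that each chromosome 23 probe has in common with the chromosome 9 probe. The longest such run was 4 bases of 60 in both cases, and other runs of that length are not marked. Probes from different places in a transcript need not share a run, so this does not show which transcript the chromosome 9 probe reads.
MCM3 brightest probe, chromosome 9: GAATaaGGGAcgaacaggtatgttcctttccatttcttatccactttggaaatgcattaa
MCM3 spanning probe, chromosome 23: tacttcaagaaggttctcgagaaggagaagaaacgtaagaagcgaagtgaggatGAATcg
MCM3 further probe, chromosome 23: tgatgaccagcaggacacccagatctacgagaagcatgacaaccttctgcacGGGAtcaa

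The chromosome 9 probe read 2.19, 2.21 and 2.42 with EEF1D-1357, 2.32, 2.66 and 1.79 with EEF1D-1893, against 1.91 and 2.15 in the controls. The brightest of the chromosome 23 probes, which had signal on all 8 arrays, read -1.42, -1.22 and -0.11 with EEF1D-1357, -0.40, -0.55 and 0.40 with EEF1D-1893, against 0.82 and 0.01 in the controls. It was lowest on EEF1D-1357 replicates 1 and 2, as MCM4 and MCM5 were, whereas the chromosome 9 probe was lowest on EEF1D-1893 replicate 3. For MCM2, 3 probes filed under a transcript identifier are described in the files as MCM2; chosen after their values were seen, they gave -0.63, -0.42 and -0.03 for both shRNAs against control.

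**Figure D4:**
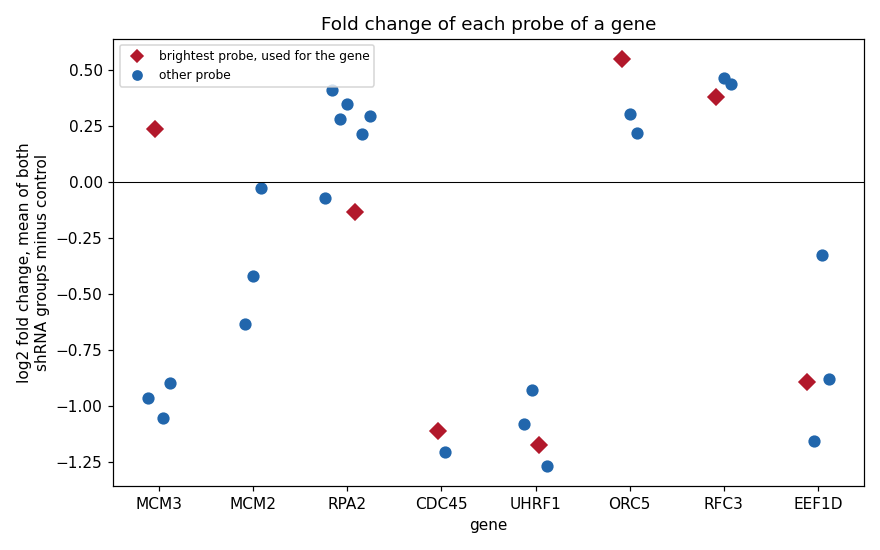
Each point is a probe, placed by its log2 fold change for the mean of both shRNA groups minus control; red diamonds mark the brightest probe of a gene and blue circles its other probes. MCM3 and RPA2 have probes on both sides of 0, while CDC45, UHRF1 and EEF1D lie below it and ORC5 and RFC3 above it with all of their probes.

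In the origin recognition complex, 4 of 6 subunits were above control for both shRNAs. The median was 0.19, against -0.46 for the MCM subunits, and the difference between the roles was not tested. It depended on control replicate 1. Without that array ORC1, ORC2, ORC3 and ORC4 were at -0.50, -0.10, -0.07 and -0.25, while ORC5 and ORC6 stayed above control. MCM4, MCM5, MCM6 and MCM7 were then at -0.18, -0.19, -0.20 and -0.21, and MCM3 at 0.12. ORC5 had -1.46, -1.42 and -1.07 with EEF1D-1357 and -0.70, -1.08 and -0.69 with EEF1D-1893, against -1.70 and -1.53 in the controls. On this probe every shRNA array was above both controls, and the EEF1D-1893 arrays averaged higher than those of EEF1D-1357. The means were -1.32 ± 0.21 with EEF1D-1357, -0.82 ± 0.22 with EEF1D-1893 and -1.62 ± 0.12 in control. The log2 fold change was 0.55 ± 0.17, 146.1% of control (adjusted p = 0.217, limma), and its other 2 probes gave 0.30 and 0.22. Those 2 probes gave -0.03 and -0.14 for EEF1D-1357 against control, and 0.64 and 0.58 for EEF1D-1893. Between the shRNAs ORC5 had the smallest p of the set. Its log2 difference was -0.49 ± 0.17 for EEF1D-1357 against EEF1D-1893, with an adjusted p of 0.747 (limma).

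ORC1, the subunit that in mammalian cells is made and lost with each cycle (probe at chr3:100741857-100742883), had -4.95, -4.33 and -3.11 with EEF1D-1357 and -3.22, -3.42 and -2.17 with EEF1D-1893, against -2.56 and -3.04 in the controls. EEF1D-1357 replicates 1 and 2 were lowest and EEF1D-1893 replicate 3 was highest. The means were -4.13 ± 0.94 with EEF1D-1357, -2.94 ± 0.67 with EEF1D-1893 and -2.80 ± 0.33 in control and the log2 fold change -0.73 ± 0.52 (adjusted p = 0.488), or -1.33 ± 0.58 for EEF1D-1357 alone. ORC3 gave 0.16 ± 0.25, ORC4 0.22 ± 0.33, ORC6 0.24 ± 0.20 and ORC2 -0.06 ± 0.14. Without control replicate 1, ORC3 and ORC4 were below control, at -0.07 and -0.25, so their sign rests on that array.

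All 3 licensing genes were below control for both shRNAs, none of them at an unadjusted p under 0.05. CDT1, which brings MCM to the origin (probe at chr18:13006940-13006999), had 0.02, 0.07 and 1.10 with EEF1D-1357 and 0.91, 0.37 and 1.29 with EEF1D-1893, against 1.76 and 0.69 in the controls. EEF1D-1357 replicates 1 and 2 were lowest and the controls differed by 1.07. The means were 0.40 ± 0.61 with EEF1D-1357, 0.86 ± 0.46 with EEF1D-1893 and 1.23 ± 0.76 in control, with a log2 fold change of -0.60 ± 0.42 and an adjusted p of 0.477. CDC6, the ATPase that loads MCM with ORC, was well above background on all 3 EEF1D-1893 arrays and both controls but on only 1 of 3 EEF1D-1357 arrays, and had a log2 fold change of -0.88 ± 0.40 with EEF1D-1357 and 0.02 ± 0.40 with EEF1D-1893. GMNN, the inhibitor of CDT1, had -0.08 ± 0.29.

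In the clamp and clamp loader, 4 of 5 measured genes were below control and the median was -0.20. RFC3, a small subunit of the loader (probe at chr12:27177489-27177548), was the exception and had 2.51, 2.29 and 2.70 with EEF1D-1357 and 2.58, 2.47 and 2.77 with EEF1D-1893, against 2.29 and 2.06 in the controls. On this probe all 6 shRNA arrays were above both controls, if only by 0.004 between EEF1D-1357 replicate 2 and control replicate 1. The means were 2.50 ± 0.20 with EEF1D-1357, 2.61 ± 0.15 with EEF1D-1893 and 2.17 ± 0.16 in control. The log2 fold change was 0.38 ± 0.16 (adjusted p = 0.293, limma), and its other 2 probes gave 0.46 and 0.43. The probe at 0.46 overlapped, with EEF1D-1357 replicate 1 at -0.351 and control replicate 2 at -0.248, while the probe at 0.43 did not. RFC5 (probe at chr17:60100786-60100845) had 0.23, 0.51 and 0.88 with EEF1D-1357 and 0.88, 0.60 and 1.06 with EEF1D-1893, against 1.36 and 0.76 in the controls, with means of 0.54 ± 0.33 with EEF1D-1357, 0.85 ± 0.23 with EEF1D-1893 and 1.06 ± 0.42 in control, a log2 fold change of -0.36 ± 0.24 and an adjusted p of 0.462. PCNA, the sliding clamp, was at -0.20 ± 0.30, RFC2 at -0.18 ± 0.18 and RFC4 at -0.27 ± 0.37. The probe that the files describe as RFC1, again chosen after its values were seen, differed by -0.03 and spanned only 0.51 to 0.71 over the 8 arrays.

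Of the single-strand binding and lagging strand genes, 4 of 5 were below control and none passed an unadjusted p of 0.05 for both shRNAs. LIG1, the ligase that joins Okazaki fragments (probe at chr18:54715304-54715363), had 0.85, 1.16 and 1.61 with EEF1D-1357 and 1.11, 1.12 and 1.85 with EEF1D-1893, against 2.49 and 1.44 in the controls. Control replicate 1 was the highest array by 0.64, and control replicate 2 lay below EEF1D-1357 replicate 3 and EEF1D-1893 replicate 3. The means were 1.20 ± 0.39 with EEF1D-1357, 1.36 ± 0.42 with EEF1D-1893 and 1.97 ± 0.74 in control, with a log2 fold change of -0.68 ± 0.35 and an adjusted p of 0.362. FEN1, which trims the fragments' flaps, was at -0.59 ± 0.35. RPA3, the smallest subunit of replication protein A (probe at chr4:16005385-16005444), had 2.83, 2.89 and 3.17 with EEF1D-1357 and 3.35, 3.07 and 3.27 with EEF1D-1893, against 2.67 and 2.94 in the controls, means of 2.97 ± 0.18 with EEF1D-1357, 3.23 ± 0.14 with EEF1D-1893 and 2.81 ± 0.20 in control, a log2 fold change of 0.29 ± 0.16 and an adjusted p of 0.38.

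RPA2, the middle subunit (probe at chr2:129669243-129669302), had 1.74, 2.05 and 2.53 with EEF1D-1357 and 2.86, 2.44 and 2.80 with EEF1D-1893, against 2.60 and 2.46 in the controls. EEF1D-1357 had the lowest 2 arrays, and its log2 difference from EEF1D-1893 was -0.59 ± 0.23, with an adjusted p of 0.747 (limma) and means of 2.11 ± 0.40 with EEF1D-1357, 2.70 ± 0.23 with EEF1D-1893 and 2.53 ± 0.10 in control. Against control its 7 probes did not share a sign: the brightest gave -0.13 and a probe overlapping it -0.07, while the 5 probes further upstream on chromosome 2 gave 0.22 to 0.41. RPA1, the large subunit, was at -0.19 ± 0.14.

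The nucleotide supply genes were all below control, 5 of 5, with a median of -0.38 and none at an unadjusted p under 0.05. DUT, which keeps uracil out of DNA (probe at chr10:63737654-63737713), had 3.94, 4.27 and 4.72 with EEF1D-1357 and 4.60, 4.48 and 5.16 with EEF1D-1893, against 5.07 and 4.76 in the controls. The 3 EEF1D-1357 arrays were below both controls, and the EEF1D-1893 arrays lay on either side of them. The means were 4.31 ± 0.39 with EEF1D-1357, 4.75 ± 0.37 with EEF1D-1893 and 4.91 ± 0.22 in control, with a log2 fold change of -0.38 ± 0.26 and an adjusted p of 0.474. RRM1, the large subunit of ribonucleotide reductase (probe at chr15:50399184-50399243), had 2.67, 2.65 and 3.67 with EEF1D-1357 and 3.27, 2.98 and 3.83 with EEF1D-1893, against 3.70 and 3.51 in the controls, with means of 3.00 ± 0.58 with EEF1D-1357, 3.36 ± 0.43 with EEF1D-1893 and 3.60 ± 0.14 in control, a log2 fold change of -0.42 ± 0.33 and an adjusted p of 0.53.

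RRM2, the S phase subunit of the same enzyme, showed the widest spread within a group among the genes that were well above background on all 8 arrays, with 0.30, 0.91 and 2.92 with EEF1D-1357 and 2.15, 2.07 and 2.73 with EEF1D-1893, against 2.74 and 2.06 in the controls. EEF1D-1357 replicate 3 was the highest array and EEF1D-1357 replicate 1 the lowest, an SD of 1.37 in that group. Its log2 fold change was -0.56 ± 0.64. TYMS, which makes thymidylate, was at -0.27 ± 0.27, and TK1, the S phase thymidine kinase, at -0.10 ± 0.35, with its 2 probes on both sides of 0.

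Among the G1/S cyclins, CDK2 and E2F factors, 4 of 6 were below control. E2F3, an activator E2F (probe at chr23:37895035-37895094), had -3.68, -3.78 and -3.72 with EEF1D-1357 and -3.62, -3.84 and -3.54 with EEF1D-1893, against -3.35 and -3.21 in the controls. All 6 shRNA arrays were below both controls, within a spread of at most 0.16 (SD) in any group, and the means were -3.73 ± 0.05 with EEF1D-1357, -3.66 ± 0.16 with EEF1D-1893 and -3.28 ± 0.10 in control. The log2 fold change was -0.42 ± 0.13, with an adjusted p of 0.213 (limma). Against the control on the same slide the difference was -0.52 for EEF1D-1357 on slide 1 and -0.31 for EEF1D-1893 on slide 2. CCNE1, cyclin E1, which activates CDK2 at the G1/S boundary (probe at chr18:39564231-39564290), had -1.11, -1.10 and -1.22 with EEF1D-1357 and -0.94, -1.09 and -1.03 with EEF1D-1893, against -1.40 and -1.31 in the controls. On this probe all 6 shRNA arrays were above both controls. The means were -1.14 ± 0.07 with EEF1D-1357, -1.02 ± 0.07 with EEF1D-1893 and -1.36 ± 0.06 in control. The log2 fold change was 0.27 ± 0.11 (adjusted p = 0.292, limma). The other CCNE1 probe gave 0.11 and overlapped, with EEF1D-1893 replicate 2 at -4.46 and control replicate 2 at -4.43.

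E2F1, another activator, had -0.94 ± 0.50, with control replicate 1 at -0.56 far above control replicate 2 at -1.93. CDK2 was at -0.65 ± 0.36 and CCNE2, cyclin E2, at 0.26 ± 0.37, with the controls at -3.70 and -2.30 as its lowest and highest arrays. E2F2 was well above background on 2 arrays and on no EEF1D-1893 array, so no fold is given for it against control.

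**Figure D5:**
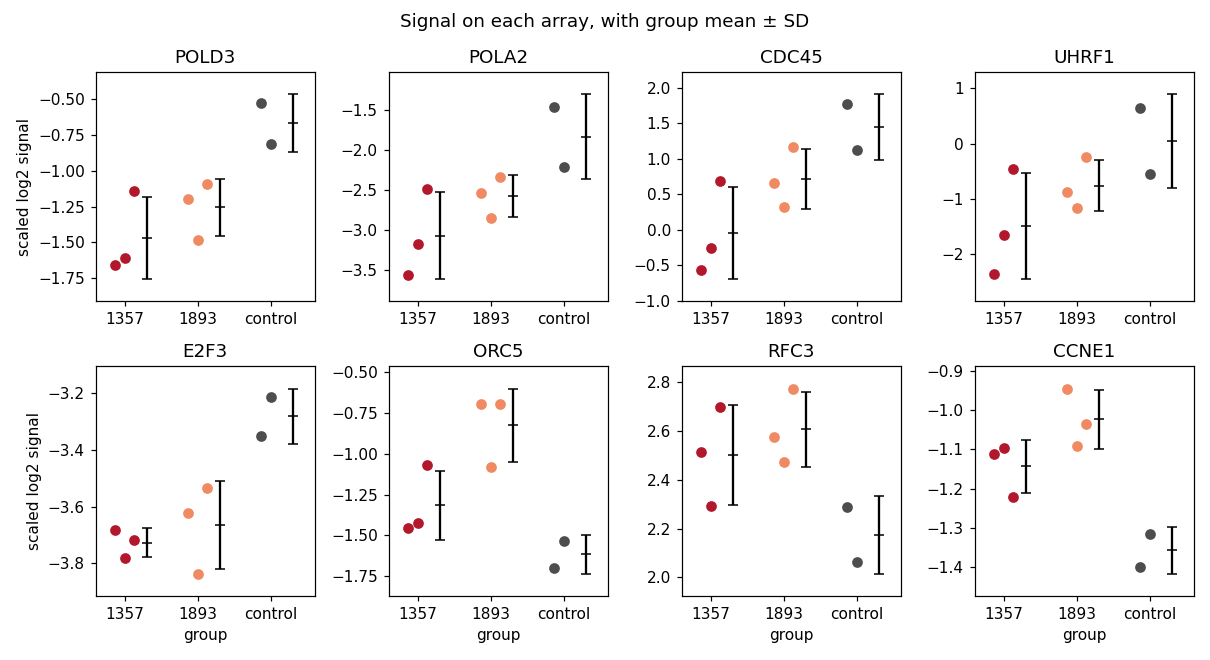
Each panel plots the scaled log2 signal of a gene on every array by group, with the group mean and SD (n = 3, 3 and 2) beside the points. On the probes used, POLD3, POLA2 and E2F3 have all shRNA arrays below both controls, ORC5, RFC3 and CCNE1 have them above, and CDC45 and UHRF1 overlap. The vertical axes differ between panels and do not start at 0.

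All 5 genes of chromatin assembly and fork protection were below control, from -1.17 to -0.003, though TIPIN was level with control within its SE. Their median of -0.39 was the value of CLSPN, a dim gene. UHRF1, which guides methylation of newly made DNA (probe at chr7:17793445-17793504), had -2.36, -1.66 and -0.47 with EEF1D-1357 and -0.87, -1.16 and -0.25 with EEF1D-1893, against 0.65 and -0.55 in the controls. The group means were -1.49 ± 0.96 with EEF1D-1357, -0.76 ± 0.47 with EEF1D-1893 and 0.05 ± 0.85 in control, and EEF1D-1357 replicate 3 and EEF1D-1893 replicate 3 exceeded control replicate 2. Its log2 fold change of -1.17 ± 0.54 had an adjusted p of 0.322 (limma), and its other 3 probes gave between -1.27 and -0.93. CHAF1A, the large subunit of the chromatin assembly factor (probe at chr7:18273041-18273100), had 0.03, 0.23 and 1.01 with EEF1D-1357 and 0.61, 0.50 and 1.32 with EEF1D-1893, against 1.63 and 0.91 in the controls, with means of 0.42 ± 0.52 with EEF1D-1357, 0.81 ± 0.45 with EEF1D-1893 and 1.27 ± 0.51 in control, a log2 fold change of -0.65 ± 0.35 and an adjusted p of 0.38. CHAF1B was at -0.34 ± 0.36, with 3 probes on both sides of 0, and TIPIN, of the fork protection complex, at 0.00 ± 0.14. CLSPN, the checkpoint adaptor claspin, was well above background on 3 arrays only.

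Compared directly, EEF1D-1357 was below EEF1D-1893 for 54 of the 57 genes (94.7%), with a median log2 difference of -0.43, against 58.4% and -0.05 over all genes. At an unadjusted p under 0.05, 5 were lower with EEF1D-1357 (ORC5, PRIM1, RPA2, MCM6 and CDC6) and 0 higher, against 3.83% and 2.59% of all genes, and 0 passed the adjusted p, as for all genes (0%). The groups were apart, with EEF1D-1357 lower, for 5 genes (ORC2, CDC7, PRIM1, RPA1 and CCNE1) and higher for 0, against 14.9% and 6.73% of all genes. The shRNAs were on different slides, and with slide as a block the median difference was -0.12, against 0.16 over all genes. Without EEF1D-1357 replicate 3 the median was -0.66, against -0.06 over all genes, and 23 of the 57 had a lower signal with an unadjusted p under 0.05, against 6.67% of all genes, so the count depends on that array.

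Agreement between probes was checked for the 42 genes with more than 1 usable probe. For both shRNAs against control, all probes were below 0 for 26 genes and above 0 for 8, and 8 genes had probes on both sides: CHAF1B, E2F1, MCM3, ORC2, PRIM1, PRIM2, RPA2 and TK1. Of the 133 usable probes, 100 were below 0.

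Other genes of the same processes were taken from lists outside the set. Of 36 further replication and S phase genes, 34 were measured, 27 were below control, the median log2 fold change for both shRNAs was -0.37, and 0 of them were higher and 4 (11.8%) lower by the unadjusted p, against the 9.60% of all genes lower at that p given above. Those 4 were TOPBP1, an activator of origin firing, at -0.73 ± 0.25, the telomere replication factor CTC1 at -0.69 ± 0.24, the fork protein WDHD1 at -0.65 ± 0.23 and the histone chaperone NASP at -0.69 ± 0.25. Of 19 regulators around RB and E2F, 16 were measured with a median of -0.13, and 3 (18.8%) were lower and 0 higher: LIN54, of the DREAM complex, at -0.68 ± 0.20, the pocket protein RBL1 at -0.84 ± 0.27 and FOXM1, a G2/M transcription factor, at -1.17 ± 0.49. RB1 itself was at 0.31 ± 0.26.

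Of the mitotic and proliferation genes, 17 of 20 were measured, all 17 were below control, and the median was -0.83, with 2 (11.8%) lower at an unadjusted p under 0.05, a share close to that of all genes. CENPF, a kinetochore protein, was at -1.56 ± 0.52 and CDC20, which activates the anaphase-promoting complex, at -1.55 ± 0.61. The arrays on which the mitotic genes were low were those on which the replication genes were. The median deviation of the mitotic list was -1.37, -0.76 and 0.38 with EEF1D-1357, -0.04, -0.12 and 0.83 with EEF1D-1893, against 0.87 and 0.39 in the controls. None of these genes passed an adjusted p of 0.05, the smallest being 0.198 for LIN54.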

How the data were processed

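Per the file headers, the deposited scanner files give 1 Cy3 intensity per spot (software: Feature Extraction 10.7.3.1), background-subtracted, spatially detrended and not normalized between arrays; the submitters' processing notes name version 9.1. Flags of 0 or 1 mark, per the file headers, spots well above background, saturated or outlying. The authors' deposited series table holds log2 values of the same signal, quantile normalized, with a median of 7.56 on each array; it served only as an alternative.

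Of 43653 probes, 238 with an outlier spot were left out. Spots were averaged per probe, log2 taken, and each array's 75th percentile subtracted. Probes well above background on at least 2 of 8 arrays were kept, and the brightest probe of each gene was used. Names came from the files and from RefSeq's table for ARS-UCD2.0, used only for symbols, which gave no member another one. The 59 genes were found by the files' gene symbol.

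Group means were fitted in limma 3.58.1 (R 4.3.3), the 8 arrays together, with 5 residual and 2.12 prior degrees of freedom, two-sided, with Benjamini-Hochberg adjustment over 12610 genes. Precision is limited by there being 8 arrays. The workflow was run on simulated data with independent noise and larger changes than those of the set, which does not measure its performance on these arrays. The set, its roles and the other lists were chosen with earlier results of these data known. Described in full are, per role, the 2 genes (1 in roles of up to 3) with the smallest p for both shRNAs, the 3 with the smallest p between the shRNAs, EEF1D, and up to 4 genes of each other list that passed an unadjusted p of 0.05. Alternatives were other scalings, filters, probe rules and priors, slide or replicate block, and each array left out.

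Same-numbered arrays of the 2 shRNAs deviated from their group means with correlations over genes of 0.107, -0.115 and 0.078, so the numbers were not taken to pair the arrays.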

Additional observations from a re-analysis of the deposited data

How the results depend on the processing

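No gene of the set passed an adjusted p of 0.05 under any alternative that kept all 8 arrays. Leaving out an array gave 0 to 1 such genes for both shRNAs and 0 to 4 for EEF1D-1357, in each case with the highest count without control replicate 2, and 0 in the other contrasts. The count lower at an unadjusted p under 0.05 ranged from 2 (without control replicate 1; 6.19% of all genes) to 22 (without EEF1D-1357 replicate 3; 9.93%) for both shRNAs, from 3 to 32 for EEF1D-1357 with the same arrays left out (6.28% and 10.2% of all genes), from 0 to 6 for EEF1D-1893, highest without control replicate 2 (23.1%), and from 0 to 23 between the shRNAs, highest without EEF1D-1357 replicate 3 (6.67%). The medians ranged from -0.62 to -0.18 for both shRNAs, from -0.89 to -0.40 for EEF1D-1357, from -0.40 to 0.05 for EEF1D-1893, positive without control replicate 1, and from -0.66 to -0.24 between the shRNAs. Under the replicate block, whose numbers do not pair the arrays, the lower counts were 31 for both shRNAs (10.6% of all genes), 37 for EEF1D-1357 (11.8%), 11 for EEF1D-1893 (7.35%) and 19 between the shRNAs (5.72%). With slide as a block they were 3 for EEF1D-1357 (6.28% of all genes), 6 for EEF1D-1893 (23.1%) and 3 between the shRNAs (9.44%). For EEF1D-1357 the count was 13 with the filter on all 8 arrays (10.4% of all genes) and 5 with only the groups compared (6.69%). For EEF1D-1893 it was 1 with quantile normalization, scaling by the median, the mean of a gene's probes, the trended robust prior or only the groups compared, where 5.49% to 7.48% of all genes were lower. Between the shRNAs it was 3 with quantile normalization, normexp or the deposited table, against 3.01% to 3.47% of all genes. Dropping EEF1D-1357 replicate 3 together with control replicate 1, a choice made after seeing the data, gave 16 for EEF1D-1357 (8.98% of all genes), 1 for EEF1D-1893 (7.27%) and 35 between the shRNAs (14.8%). The cause of these shifts was not tested. The median for both shRNAs lay between -0.59 and -0.26 under the settings that kept every array. Scaling by the median moved the median of all genes for EEF1D-1357 against control to 0.03, from -0.09. Of 464 values of the genes described in full and MCM3 under the alternatives, 460 kept their sign and side of the threshold. MCM10 passed without control replicate 2, and MCM3 reversed with its probes at -0.97, -1.05 and -0.90, the last 2 of them dim. No gene of the set had an adjusted p under 0.19 in the main fit, so keeping that side says little about stability. The passes for EEF1D-1357 without control replicate 2, POLA2 among them, are not in that count. Dim probes limit GINS4, PRIM1, POLE, E2F2, CDC6 and CLSPN.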
